A study of Mus musculus with 21 samples.

Results

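The 9 genes described here lie in 1 stretch of mouse chromosome 7 around the imprinted pair H19 and Igf2. They were chosen by linkage to that pair, and each was read from its row in the expression table. Where a symbol had several rows the one with the highest mean was to be selected on its RPKM (a read density scaled by the length of the gene model and the size of the library), but each of the 9 symbols had 1 row. They are 9 genes of a table of 22119 rows. The choice was made with the RPKM and hairpin differences of these same libraries known, so the differences between hairpins in the 9 genes are given as a description and are not used to support anything.

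RNA came from EL4, a T lymphoma line of C57BL/6 mice, and the labels' protocol describes polyA libraries. In the shCTCF group (2 libraries) the cells carried a short hairpin against Ctcf, and in the shluc group (2 libraries) a hairpin against luciferase, which mouse cells lack. The labels distinguish no separate hairpins, so off-target effects cannot be told apart from lower Ctcf, and EL4 is a single inbred line in which parental alleles cannot be told apart either. The series holds 21 samples, and the other 17 are not analysed here. The expression table heads the libraries of each hairpin 2 and 3, and these numbers name them below. Separate cultures are not mentioned for libraries with the same hairpin, so errors and tests reflect variation between 2 libraries that may be purely technical.

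The H19-Igf2 locus is the textbook case of an enhancer-blocking insulator. On the maternal chromosome CTCF, a zinc-finger protein, binds an unmethylated control region upstream of H19 and keeps enhancers beyond H19 from reaching Igf2 and Ins2. On the paternal chromosome the region is methylated, CTCF does not bind, and Igf2 is transcribed. H19 and Igf2 are highly active in embryonic mesoderm and endoderm and are mostly shut down after birth. Along the chromosome, the order in the RefSeq table of GRCm38.p6 is Ctsd, Syt8, Tnni2, Lsp1, Tnnt3, Mrpl23, H19, Igf2 and Ins2. That build differs from the mm9 of the study's alignments and served here for gene order and, below, for sequence.

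Of the 9 genes, 4 had a mean of 1 RPKM or more over the 4 libraries, namely Ctsd, Mrpl23, Tnnt3 and Lsp1. Another 2 (H19 and Tnni2) were above 0 in 1 library each, and 3 (Igf2, Ins2 and Syt8) were silent, listed at 0 in all 4 libraries. Mrpl23, the nearest of the other 8 to H19 on the side away from Igf2, with the silent Nctc1 between them, was lower in shCTCF cells, and Tnnt3, the next gene along, was higher. Ctsd and Lsp1 differed by less, neither past the threshold. The hairpin target itself had 26.5 and 26.4 RPKM in the shCTCF libraries, against 49.0 and 50.9 RPKM in the shluc libraries. Its log2 difference was −0.89 (SE 0.08, adjusted p = 0.00754 in limma with Benjamini-Hochberg adjustment over 9898 genes). Leaving out a shluc library raised the adjusted p to 0.146 (headed 2) or 0.148 (headed 3).

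**Figure D1:**
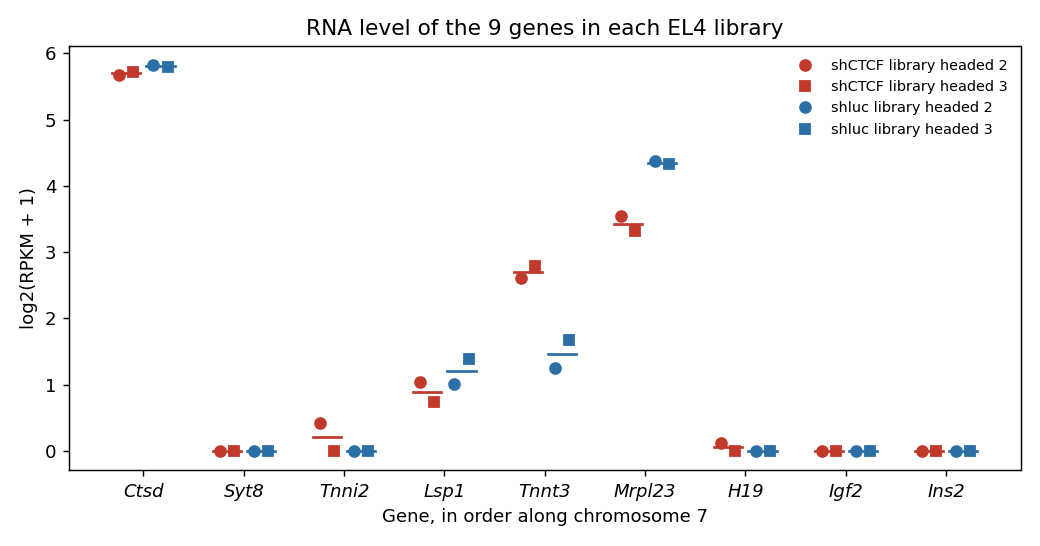
RNA level of each of the 9 genes as log2(RPKM + 1), in their order along chromosome 7. Points are single libraries (circles headed 2, squares headed 3), with the shCTCF libraries in red left of the shluc libraries in blue, and short lines are group means. Mrpl23 lies lower and Tnnt3 higher in both shCTCF libraries, while Syt8, Igf2 and Ins2 lie at 0 throughout.

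Promoter sequences are given for 3 of the genes with a matched window, which behaved differently: Mrpl23 (lower in shCTCF cells), Ctsd (the most highly expressed, with a small difference) and Igf2 (silent). Each window runs from 250 bases before to 50 bases after the gene's start, on the gene's own strand, from RefSeq in build GRCm38.p6. Such windows were matched for 4 of the 9 genes, with 1 each for Ctsd and Mrpl23, 3 for Syt8 and 4 for Igf2. Tnnt3, which had the largest difference of the 9 genes, had no matched window. The Igf2 window shown is the one with most motif matches of its 4. Capitals mark exact matches on either strand to TATAAA (the TATA box), GGGCGG (the GC box bound by Sp factors), AGGGGGC (part of the CTCF consensus) or CACGTG (the core of the CLEAR element of lysosomal genes bound by TFEB). The Mrpl23 window is chr7:142532782-142533081 on the plus strand, the Ctsd window chr7:142387778-142388077 on the minus strand and the Igf2 window chr7:142657447-142657746 on the minus strand.
Mrpl23: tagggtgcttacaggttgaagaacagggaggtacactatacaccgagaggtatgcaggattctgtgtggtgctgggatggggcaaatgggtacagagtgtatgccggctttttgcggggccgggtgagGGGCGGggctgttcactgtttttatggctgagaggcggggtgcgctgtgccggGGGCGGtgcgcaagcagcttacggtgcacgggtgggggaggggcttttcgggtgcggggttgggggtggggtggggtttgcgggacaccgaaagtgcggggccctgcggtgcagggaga
Ctsd: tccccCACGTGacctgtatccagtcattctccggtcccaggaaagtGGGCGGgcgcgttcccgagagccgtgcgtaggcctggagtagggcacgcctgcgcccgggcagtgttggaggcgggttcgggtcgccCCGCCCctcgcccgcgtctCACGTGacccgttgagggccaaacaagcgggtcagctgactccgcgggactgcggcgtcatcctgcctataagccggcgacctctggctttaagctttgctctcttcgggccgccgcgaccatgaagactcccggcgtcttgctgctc
Igf2: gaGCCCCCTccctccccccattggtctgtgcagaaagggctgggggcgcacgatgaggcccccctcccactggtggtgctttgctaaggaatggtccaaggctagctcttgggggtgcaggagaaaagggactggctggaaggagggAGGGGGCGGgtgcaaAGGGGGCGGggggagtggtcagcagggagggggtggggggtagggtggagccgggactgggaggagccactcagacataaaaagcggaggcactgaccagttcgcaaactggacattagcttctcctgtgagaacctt

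Mrpl23 had 2 GC boxes, 122 and 69 bases upstream of its start, and none of the other motifs in this window. Ctsd had 2 GC boxes, 204 and 117 bases upstream, and 2 CLEAR cores, 245 and 98 bases upstream. The Igf2 window had 3 matches to the CTCF letters, 248, 103 and 88 bases upstream, of which the last 2 each overlap a GC box. This window was picked for its matches, so its count is not comparable with the shares over all windows that follow. Another Igf2 window had 1 match to the CTCF letters and 1 GC box, and the rest had no match to any of the motifs. Of the Syt8 windows, 1 had a match to the CTCF letters. Across all 32851 RefSeq windows of this length, 35.7% held the GC box, 10.6% the CTCF letters, 7.15% the CLEAR core and 13.6% the TATA box. GC content was 63.3% in the Mrpl23 window, 67.3% in the Ctsd window and 63.3% in the Igf2 window, against a median of 52.7% over all windows. These matches describe the letters only, and binding there was not measured in the files used here.

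Mrpl23 encodes a protein of the large subunit of the mitochondrial ribosome, which translates the few proteins encoded by mitochondrial DNA. It had 10.7 and 8.94 RPKM in the shCTCF libraries headed 2 and 3, against 19.7 and 19.1 RPKM in the shluc libraries headed 2 and 3. Both shCTCF libraries lay below both shluc libraries, and the groups did not overlap. The means were 9.80 ± 1.23 RPKM in shCTCF cells and 19.4 ± 0.44 RPKM in shluc cells (SD, n = 2 each), a ratio of 0.506. The values imply 27 and 30 reads in the shCTCF libraries, against 60 and 68 reads in the shluc libraries, on a gene model of 582 bp. Summed over libraries, that is 57 reads in shCTCF cells (exact Poisson 95% interval 43.2 to 73.9) and 128 reads in shluc cells (107 to 152), where the intervals cover counting error only.

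Taken as shCTCF minus shluc and in log2(RPKM + 1), the difference of Mrpl23 was −0.92 (SE 0.11). From the most negative upwards it ranked 32 of the 9898 tested genes. Leaving out a shCTCF library gave −1.03 (headed 2) or −0.80 (headed 3), both still past an adjusted p of 0.05. Leaving out a shluc library gave −0.90 (headed 2) or −0.94 (headed 3), and neither was past it. The log2 fold change of Mrpl23 listed in the authors' deposited table was −1.0.

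Other mitochondrial ribosomal protein genes were looked up after the value of Mrpl23 had been seen. The 75 others that passed the filter on low values had 58 positive and 17 negative log2 differences, with a median of 0.07 against 0.01 for all tested genes. Their most negative value was −0.42. In limma 1 of the 75 was past an adjusted p of 0.05, against 1.29% of all tested genes. It was Mrps16, a small-subunit protein, at 122 ± 14.4 RPKM in shCTCF and 77.0 ± 3.53 RPKM in shluc cells (log2 difference 0.65, SE 0.10, adjusted p = 0.0218). It passed only in the fit without the shCTCF library headed 2 among the 4 that leave out a library. Whether Mrpl23 differs from this family was not tested.

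Tnnt3 encodes fast skeletal muscle troponin T, the subunit that ties the calcium-sensing troponin complex to tropomyosin on the thin filament. It had 5.08 and 5.91 RPKM in the shCTCF libraries headed 2 and 3, against 1.38 and 2.19 RPKM in the shluc libraries headed 2 and 3. The groups did not overlap, and the lower shCTCF library was above the higher shluc library by more than the gap within either group. The means were 5.49 ± 0.584 RPKM in shCTCF cells and 1.78 ± 0.572 RPKM in shluc cells (SD, n = 2 each), a ratio of 3.08. The row combines 8 transcripts of the gene, and whole reads could not be recovered in every library. The shCTCF library headed 3 and the shluc libraries headed 2 and 3 stand in the proportion of 33 to 7 and 13 reads. On that scale the shCTCF library headed 2 stands for 21.4 reads, which is not a whole number.

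The log2 difference of Tnnt3 was 1.23 (SE 0.19), which ranked 26 of 9898 from the most positive down. Leaving out a shCTCF library gave 1.33 (headed 2) or 1.14 (headed 3), and leaving out a shluc library gave 1.02 (headed 2) or 1.45 (headed 3). In none of these 4 fits was Tnnt3 past an adjusted p of 0.05. With a pseudocount of 0.1 in place of 1 it was 1.60, and in the authors' deposited table it was 1.61.

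The 2 neighbours differed in opposite directions between hairpins, which shows in their ratio within a library. Mrpl23 stood above Tnnt3 by a ratio of RPKM of 2.10 and 1.51 in the shCTCF libraries headed 2 and 3, against 14.3 and 8.70 in the shluc libraries headed 2 and 3. Mrpl23 was the more abundant per length in all 4 libraries.

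Tnni2 encodes fast skeletal muscle troponin I, the inhibitory subunit of the same complex, and lies beyond Lsp1 from Tnnt3. It had 0.345 RPKM in the shCTCF library headed 2, which is 1 read on 667 bp, and was at 0 in the shCTCF library headed 3 and in both shluc libraries. No fold is given, since every library was under the chosen floor of 3 reads. Of the 6 other troponin genes, 2 were tested and neither passed in limma (0 at an unadjusted p below 0.05, which 14.1% of all tested genes reached). Tnnt1, slow skeletal troponin T, averaged 12.4 RPKM in shCTCF and 12.7 RPKM in shluc cells (log2 difference −0.03, SE 0.12), and Tnni1, slow skeletal troponin I, 3.11 and 2.91 RPKM in the same order (0.08, SE 0.18).

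Ctsd encodes cathepsin D, the main aspartic protease of lysosomes. It was the highest of the 9 genes, above 82.6% of the tested genes by mean RPKM. It had 50.3 and 51.9 RPKM in the shCTCF libraries headed 2 and 3, against 55.6 and 54.7 RPKM in the shluc libraries headed 2 and 3, resting on 427 and 585 reads against 569 and 655 reads. The groups did not overlap, but the distance between them was small: 51.1 ± 1.15 RPKM in shCTCF and 55.1 ± 0.645 RPKM in shluc cells (SD, n = 2 each), a log2 difference of −0.11 (SE 0.08). Leaving out 1 library at a time gave −0.13 to −0.09.

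The other lysosomal genes were read beside it. Of 13 other cathepsin genes 6 were tested and none passed in limma (1 of the 6 at an unadjusted p below 0.05), with a median log2 difference of 0.04. The highest were the joined rows Ctsz+Th1l, at 73.0 RPKM in shCTCF and 73.2 RPKM in shluc cells, and Ctsb+Fdft1, at 34.5 and 39.4 RPKM in the same order. Of 20 further lysosomal genes 19 were tested, and none passed in limma, with a median of 0.04. At an unadjusted p below 0.05 there were 4 of the 19, against 14.1% of all tested genes. Psap, the saposin precursor, had 141 RPKM in shCTCF and 137 RPKM in shluc cells, and Lamp1, a membrane glycoprotein, 78.7 and 89.7 RPKM in the same order.

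Lsp1 encodes an actin-binding protein of leukocytes. It was just inside the filter on low values with a mean of 1.09 RPKM, while the next gene below, Tnni2, was outside it at 0.0862 RPKM. Lsp1 had 1.05 and 0.66 RPKM in the shCTCF libraries headed 2 and 3, against 1.02 and 1.61 RPKM in the shluc libraries headed 2 and 3. The groups overlapped. These values stand in the proportion of 6 and 5 reads to 7 and 13 reads, the smallest whole numbers that fit, and the log2 difference of −0.32 had an SE of 0.23. Leaving out 1 library at a time gave −0.50 to −0.13, and a pseudocount of 0.1 gave −0.57. A difference of −0.32 was not detectable at this depth. By mean level it ranked 9815 of the 9898 tested genes.

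Syt8 encodes a synaptotagmin, a family of membrane proteins of vesicle traffic, and lies between Ctsd and Tnni2. It was at 0 in all 4 libraries. H19, a long noncoding RNA of embryonic and muscle tissue, shares a row with Mir675, the microRNA precursor in its first exon. That row had 0.088 RPKM in the shCTCF library headed 2, which is 1 read, and 0 in the shCTCF library headed 3 and both shluc libraries. Igf2, a fetal growth factor, shares a row with its antisense transcript Igf2as, and the row was at 0 in all 4 libraries, as was Ins2, one of the 2 mouse insulin genes. On a gene model of 1 kb, 3 reads would be 0.69 and 0.52 RPKM in the shCTCF libraries and 0.572 and 0.489 RPKM in the shluc libraries, so lower levels of the silent genes were not detectable at this depth.

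The microRNAs that lie within H19 and Igf2 are shown with their seed (bases 2 to 8) in capitals, from RefSeq in build GRCm38.p6, since their hosts were silent or at 1 read. All 4 lie on the minus strand, mmu-miR-675-5p at chr7:142577112-142577133, mmu-miR-675-3p at chr7:142577078-142577099, mmu-miR-483-5p at chr7:142654968-142654989 and mmu-miR-483-3p at chr7:142654932-142654952. No seed was shared among them. The Mir483 row was at 0 in all 4 libraries. Mature microRNAs lack poly(A) tails, and their own levels are not given here.
mmu-miR-675-5p: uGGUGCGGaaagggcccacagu
mmu-miR-675-3p: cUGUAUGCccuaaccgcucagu
mmu-miR-483-5p: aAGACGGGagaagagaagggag
mmu-miR-483-3p: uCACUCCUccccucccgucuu

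Over the 4 genes that passed the filter, 2 were past an adjusted p of 0.05 in limma, Tnnt3 higher and Mrpl23 lower. Over all tested genes 128 of 9898 were, or 1.29%. Leaving out the shluc library headed 2 took that count to 0, and leaving out the one headed 3 took it to 2. The groups did not overlap for 3 of the 4, against 44.0% of all tested genes. The authors' deposited table of changed genes, made from the same libraries, lists 435 of 22119 rows or 1.97%, among them Tnnt3 and Mrpl23 and none of the other 7. The median log2 difference of the 4 genes was −0.21, against 0.01 for all tested genes, of which 5% lay below −0.31 and 5% above 0.36. As the 9 genes were chosen with these differences known, nothing is read from these counts.

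**Figure D2:**
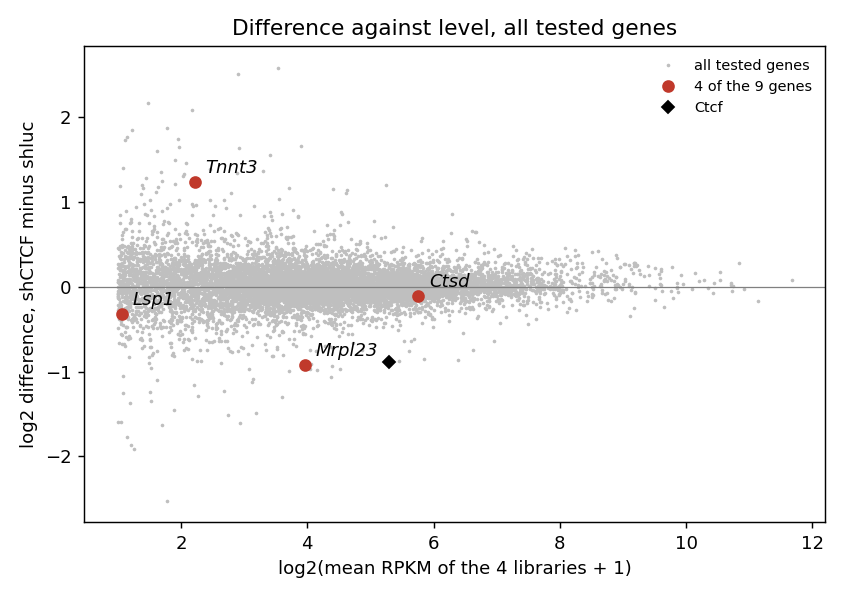
Log2 difference (shCTCF minus shluc) against log2(mean RPKM + 1) for the 9898 tested genes in grey, with the 4 measurable genes of the neighbourhood in red and Ctcf as a black diamond. Tnnt3 at 1.23 and Mrpl23 at −0.92 lie at the edges of the cloud for their level, and Ctsd at −0.11 and Lsp1 at −0.32 lie within it.

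The flanking genes that were measurable had smaller differences than Mrpl23 and Tnnt3. From Tollip on one side to Dhcr7 on the other, the table held 34 neighbouring rows besides the 9 genes. Of these, 11 were at 0 in all libraries, 8 were below a mean of 1 RPKM and 15 were tested. None of the 15 passed in limma, against 1.29% of all tested genes. At an unadjusted p below 0.05 there were 0 of the 15, against 14.1% of all tested genes. Their log2 differences ran from −0.19 to 0.15. In 6 of the 15 the groups did not overlap, against 44.0% of all tested genes.

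On the Ctsd side, Tollip, an adaptor of innate receptor signalling, had a log2 difference of −0.13 (SE 0.09) and Mob2, a kinase regulator, 0.14 (SE 0.09). On the Ins2 side, the first measurable gene was Tspan32, a tetraspanin of blood cells, with 82.4 and 97.0 RPKM in the shCTCF libraries, against 94.2 and 96.9 RPKM in the shluc libraries, which overlapped. Beyond it, the joined row of Cd81, another tetraspanin, and R74862 had a log2 difference of 0.05, Tssc4 −0.10 and the joined row of the potassium channel gene Kcnq1 and its antisense RNA Kcnq1ot1 −0.02. Nap1l4, a histone chaperone, had −0.02, and Cars, a cysteinyl-tRNA synthetase, −0.01. The decoy TRAIL receptors Tnfrsf22 and Tnfrsf23 had 0.05 and −0.19, and their neighbour Tnfrsf26 had 0.09. Osbpl5, an oxysterol-binding protein, had 0.15, Mrgpre, a G protein-coupled receptor, −0.07, Nadsyn1, which makes NAD, −0.01, and Dhcr7, the last enzyme of cholesterol synthesis, −0.10. Where Kcnq1 and Kcnq1ot1 share a row, the strands cannot be told apart.

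**Figure D3:**
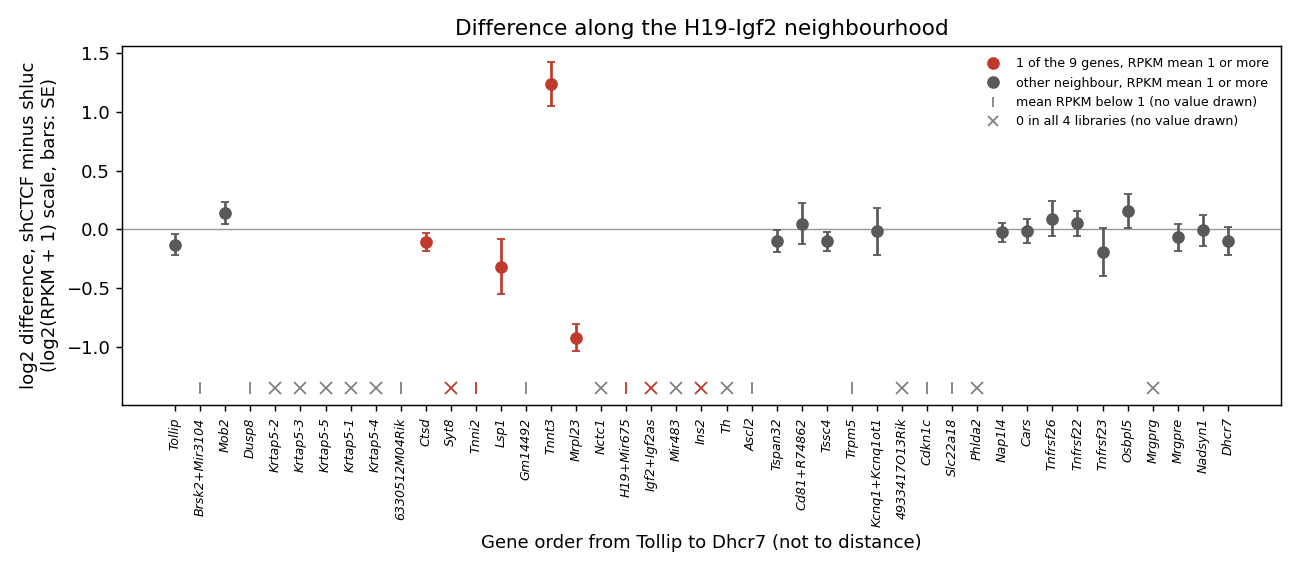
Log2 difference (shCTCF minus shluc) with its SE for each row of the table from Tollip to Dhcr7, spaced by gene order and not by distance. Red marks the 9 genes and grey the other neighbours, ticks mark rows with a mean below 1 RPKM and crosses rows at 0 in all 4 libraries. Tnnt3 at 1.23 and its neighbour Mrpl23 at −0.92 stand apart, and the 15 grey points lie between −0.19 and 0.15.

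Igf2 acts through a set of receptors and binding proteins, which were read even though the ligand was silent. Of 19 other genes of this axis, 6 were at 0 in all 4 libraries and 5 had a mean below 1 RPKM. The receptor gene Igf1r was just inside the filter, with a mean of 1.00 RPKM. Of these 19 genes 8 were tested and 1 passed in limma, against 1.29% of all tested genes. At an unadjusted p below 0.05 there were 2 of the 8, against 14.1% of all tested genes. The 1 that passed was Igf1, the related growth factor (log2 difference 1.37, SE 0.16, adjusted p = 0.00913 in limma). It had 13.7 and 12.5 RPKM in the shCTCF libraries, against 3.68 and 5.35 RPKM in the shluc libraries. Igf1 did not pass when either shluc library was left out (adjusted p = 0.151 without the one headed 2, 0.0986 without the one headed 3). The most abundant was Igf2r, the receptor that takes up IGF2 for degradation, at 60.7 RPKM in shCTCF and 59.5 RPKM in shluc cells (log2 difference 0.03, SE 0.08). The joined row Igfbp7+Polr2b followed at 31.3 and 32.9 RPKM in the same order. Ins1, the other insulin gene, was at 0 in all 4 libraries. The median of the 8 was −0.04.

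Factors known to act at the H19 control region were also read. Of 26 listed genes 18 were tested, with a median log2 difference of 0.02. Of these 2 passed in limma, against 1.29% of all tested genes, and 1 of the 2 was the hairpin target Ctcf, with a lower level. At an unadjusted p below 0.05 there were 2 of the 18, against 14.1% of all tested genes. The other that passed was Stag1, which encodes a subunit of the cohesin ring, with a higher level (log2 difference 0.58, SE 0.08, adjusted p = 0.0197 in limma). It had 41.8 and 42.3 RPKM in the shCTCF libraries, against 26.9 and 28.8 RPKM in the shluc libraries. Without any 1 of the 4 libraries Stag1 did not pass (adjusted p from 0.0844 to 0.219). Trim28, the corepressor that guards imprints, averaged 211 RPKM in shCTCF and 210 RPKM in shluc cells, and the joined row Ddx5+Mir3064 260 and 243 RPKM in the same order. Of 20 other imprinted genes 6 were tested and none passed in limma, with a median of 0.05. Among the 6, Mest was read from the joined row Copg2+Mest, in which the 2 genes cannot be told apart. At an unadjusted p below 0.05 there were 2 of the 6, against 14.1% of all tested genes. The highest of the imprinted genes was the joined row Gnas+Nespas, at 271 RPKM in shCTCF and 260 RPKM in shluc cells.

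By a rule of likeness, the 3 tested genes closest to each measurable gene were found by the root-mean-square distance of log2(RPKM + 1) over the 4 libraries, after each gene was centred on its mean. Those of Mrpl23 were Tuba8 (distance 0.0303), Syt13 (0.0574) and Il21r (0.0718), and 8 genes lay within 0.1. Those of Tnnt3 were BC048943 (0.0697), Snord57 (0.111) and 1810046K07Rik (0.117), with 1 gene within 0.1. Ctsd was closest to Prmt10, Tssc4 and Xab2 (0.0036, 0.0051 and 0.0081), of which Tssc4 is one of the flanking genes above. As 3973 genes lay within 0.1 of Ctsd, such closeness is common. Lsp1 was closest to Glyctk+Mir135a-1, 4632434I11Rik and Alg12 (0.0206, 0.0323 and 0.0323), with 57 genes within 0.1.

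EL4 is of the T lineage, and all 13 T cell markers listed passed the filter on low values. Among them Cd247 shares a row with Pou2f1, and Cd6 was near the filter with a mean of 1.32 RPKM. None of the 13 passed in limma. At an unadjusted p below 0.05 there were 7 of the 13, against 14.1% of all tested genes, and 11 of the 13 had a negative log2 difference, with a median of −0.22 against 0.01 for all tested genes. Their RPKM summed to 1634 and 1636 in the shCTCF libraries, against 1914 and 1871 in the shluc libraries, with Thy1 and Lat the highest. Of 14 skeletal muscle markers, the cell type of Tnnt3 and Tnni2, 8 were at 0 in all 4 libraries, Myod1, Myf5, Myh1, Myh2, Myh4 and Pax7 among them, and Acta1 and Mylpf were the 2 tested, neither passing in limma (0 at an unadjusted p below 0.05). Their summed RPKM was 23.9 and 20.1 in the shCTCF libraries, against 24.8 and 23.1 in the shluc libraries. Of 10 islet markers 8 were at 0 and none was tested. The myeloid markers summed to 8.46 and 8.44 RPKM in the shCTCF libraries, against 7.21 and 7.01 RPKM in the shluc libraries. Of these, 3 were tested and none passed in limma (1 at an unadjusted p below 0.05), the 2 highest being Cd68 and Fcgr3. The fibroblast markers Col3a1 and Fn1 were at 0, while Vim and Thy1, which T cells also express, were the highest of that list. Their part in the results was not tested, and in bulk RNA fewer cells of a type and less RNA per cell cannot be told apart.

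**Figure D4:**
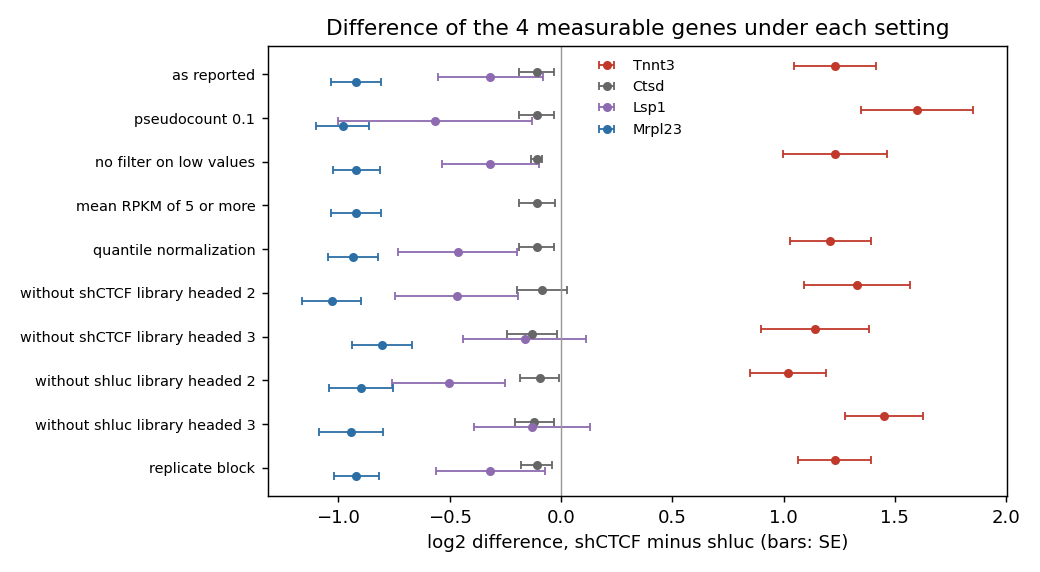
Log2 difference (shCTCF minus shluc) of the 4 measurable genes, with SE, as reported and under 9 other settings for Ctsd and Mrpl23 and 8 for Tnnt3 and Lsp1, which lie below a mean of 5 RPKM, on the log2(RPKM + pseudocount) scale. Tnnt3 stays between 1.02 and 1.60 and Mrpl23 between −1.03 and −0.80, while Ctsd and Lsp1 stay below 0 with bars that reach or pass 0 in some settings.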

How the data were processed

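The authors deposited RPKM per refGene row, aligned to mm9 with Bowtie2 per the submitters' processing notes. The sources used here do not name a counting tool. The authors' deposited table of changed genes holds log2 fold changes and adjusted p-values (FDR) for the same values, and numbers the libraries 1 and 2, not 2 and 3. The table holds 22119 rows and 21844 distinct symbols. Rows that join several symbols were matched by any of them. The genes of a joined row cannot be told apart, so a list counts such a row whichever gene its reads came from. Reads were recovered from the RPKM with library totals derived from microRNA hairpin rows and RefSeq hairpin lengths: 4346709 and 5768562 reads in the shCTCF libraries and 5240361 and 6133045 in the shluc libraries. Of 7012 rows with 1 transcript and a mean of 1 RPKM or more, 98.6% gave whole reads (relative tolerance 2e-07). The row with the highest mean was kept per symbol, and 9898 with a mean RPKM of 1 or more were tested with limma 3.58.1 (R 4.3.3, trend) on log2(RPKM + 1), a scale that understates the change of low genes, without covariates and with Benjamini-Hochberg adjustment at 0.05. The fit was tested on simulated data. Python 3.11.15, pandas 2.3.3 and scipy 1.17.1 did the rest. Genes named are the 9 genes, Ctcf, in each list those past the threshold and the 2 highest, all tested flanking genes and the 3 nearest in pattern; others were chosen after their values were seen. The 9 genes and the lists were chosen with earlier results of these data known. Alternatives were another pseudocount, other filters, quantile normalization, leaving out each library and a replicate block. The other 17 samples of the series were not used here, an EL4 RNA library with no hairpin in its title among them. For the chromatin data, gene positions in mm9 were not at hand.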

Additional observations from a re-analysis of the deposited data

How the results depend on the processing

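Across 34 alternatives for the 4 measurable genes, the log2 difference kept its direction in all 34. It moved by less than the replicate spread in 33, the exception being Tnnt3 with a pseudocount of 0.1, at 1.60. Most of these outcomes were fixed in advance. Another filter or the replicate block leaves the difference itself as it was, and leaving out 1 library cannot move it by the spread. Where the groups did not overlap, leaving out 1 library could not reverse the direction either. Only the other pseudocount and quantile normalization could have moved a difference that far. The count of genes past the threshold, 128 as reported, depended on the setting. It was 0 without a filter on low values (limma over 21844 symbols, 1619 at an unadjusted p below 0.05) and 0 to 78 with 1 library left out: 78 without the shCTCF library headed 2, 58 without the one headed 3, 0 without the shluc library headed 2 (1034 at an unadjusted p below 0.05) and 2 without the one headed 3. In these fits the lone library is assumed to vary like the other group. The Ctcf difference was −0.89 with an adjusted p of 0.222 without the filter, and −0.92 to −0.86 with 1 library left out. The median of the measurable genes was −0.34 with a pseudocount of 0.1, 0 over all 9 genes without the filter, −0.51 over 2 genes at a mean RPKM of 5 or more, and −0.30 to −0.12 with 1 library left out. With the library number as a replicate block the count was 507 and the Ctcf difference −0.89. The 2 libraries headed 2 deviated together with r = 0.165 over 9898 genes, but the labels give the number no shared batch, so the libraries share only a number. The causes were not tested. None of the 9 genes had several rows, so other rows of a symbol were not run. With 2 libraries a group and 5 to 13 reads for Lsp1, small changes of low genes were not detectable.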

Other observations

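Of the 8 flanking rows below the filter but above 0 in some library, 2 had groups that did not overlap. The share of 44.0% covers tested genes only, so it does not apply to these rows. A row above 0 in a single library could not have had separate groups. The 2 rows whose groups did not overlap are both imprinted genes, and they were chosen after their values were seen. Ascl2, a basic helix-loop-helix factor beyond Ins2 and Th, had 0 and 0.108 RPKM in the shCTCF libraries, against 0.474 and 0.405 RPKM in the shluc libraries, which is 0 and 1 read against 4 and 4 reads. Slc22a18, a transporter of the Kcnq1 domain, had 1.45 and 0.73 RPKM in the shCTCF libraries, against 0.536 and 0.343 RPKM in the shluc libraries. In that row the values stand in the proportion of 9 and 6 reads to 4 and 3 reads. Cdkn1c, the growth inhibitor of the same domain, had 1 read in the shluc library headed 3 and none in the other 3 libraries, and Phlda2 was at 0 in all 4. None of these rows was tested, and with so few reads counting error alone is large.

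In the growth factor axis, Igfbp6, a binding protein with a preference for IGF2, averaged 6.02 RPKM in shCTCF and 3.42 RPKM in shluc cells and did not pass in limma (log2 difference 0.66, adjusted p = 0.24). Tnnc2, the fast skeletal troponin C, was below the filter with 0.332 and 0.251 RPKM in the shCTCF libraries, against 0.827 and 0.707 RPKM in the shluc libraries. It was not tested, and no direction is read from levels this low.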
